A study of Homo sapiens with 2 samples.

Results

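The enzymes that turn squalene into cholesterol were examined in HSC-3, a line of head and neck squamous carcinoma of the tongue. They were taken as the 9 genes SQLE, LSS, CYP51A1, TM7SF2, MSMO1, NSDHL, EBP, SC5D and DHCR7. The genes were chosen by symbol from the order of the pathway, and all 9 were found among the 60616 genes listed. RNA was sequenced from 1 culture given FIN56 at 1 µM for 48 h and from 1 culture given the vehicle, 0.1% DMSO, for which the labels state no time of its own. Both were kept in medium with 5% fetal bovine serum and 1% penicillin and streptomycin, and serum itself carries cholesterol. As each condition was sequenced once, nothing below is replicated, every difference is one between 2 libraries, and p-values are left out. Each interval is a 95% interval that covers counting error only.

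Squalene is the first compound committed to sterols. SQLE oxidizes it, LSS folds the product into the ring system of lanosterol, and the later enzymes remove methyl groups, move or add double bonds and reduce them until cholesterol is reached. Transcription of most of these genes is driven by SREBP2, a membrane-bound factor that is released to the nucleus when sterols in the endoplasmic reticulum run low. The pathway touches ferroptosis, the cell death by lipid peroxidation that FIN56 induces, in several places. FIN56 promotes loss of the GPX4 protein and binds squalene synthase, the enzyme just before SQLE, and 7-dehydrocholesterol, which SC5D forms and DHCR7 consumes, can trap lipid radicals.

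Transcripts of the pathway were lower in the FIN56 library at some steps and close to the DMSO level at others. In RNA from whole cultures, fewer cells that express a gene and less RNA per cell cannot be told apart. LSS, DHCR7 and MSMO1 had the lowest levels relative to DMSO, with FPKM ratios of 0.501, 0.576 and 0.603. SQLE, CYP51A1 and EBP followed at 0.695, 0.728 and 0.781. SC5D, NSDHL and TM7SF2 stood at 0.967, 0.963 and 1.03. FPKM counts fragments per kilobase of effective gene length and scales by the depth of the library, and a ratio is always FIN56 over DMSO. In all, 8 of the 9 ratios lay below 1, beside 46.1% of the 12638 genes with 1 FPKM or more in each library. The median ratio of the 9 genes was 0.728 (log2 ratio -0.46), beside 1.02 (0.028) for the same 12638 genes. Summed over the 9 genes, TPM, which gives every library the same total, was 415 with DMSO and 300 with FIN56, a ratio of 0.722.

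**Figure D1:**
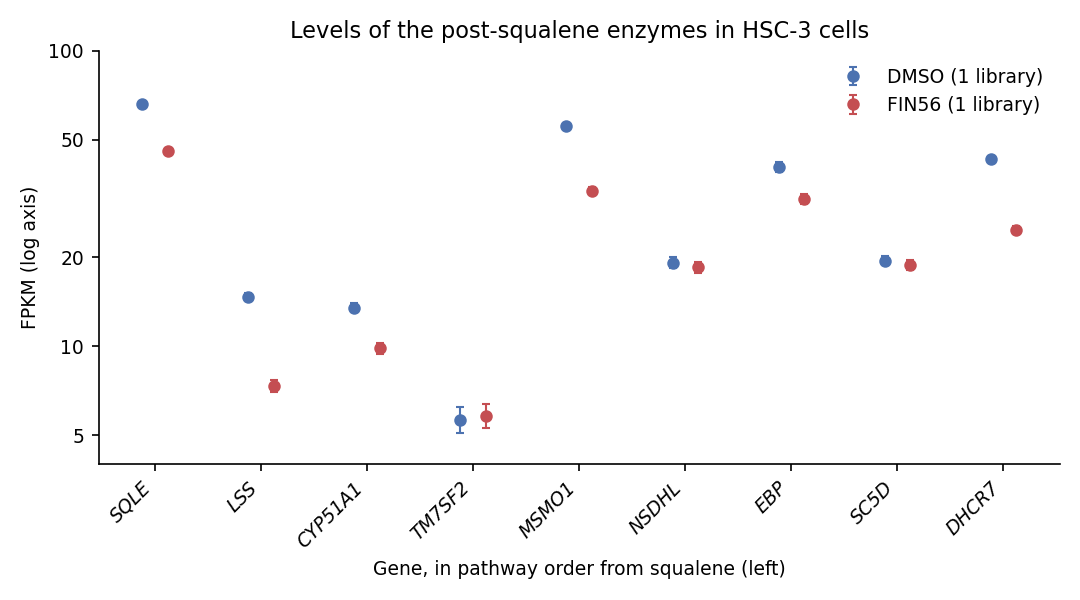
FPKM of each enzyme on a log axis, in pathway order, with 1 point per library (DMSO blue, FIN56 red) and bars for the exact 95% Poisson interval of the count behind it. The points separate most for LSS (14.6 and 7.33), MSMO1 (55.7 and 33.6) and DHCR7 (42.9 and 24.7), and lie together for TM7SF2, NSDHL and SC5D.

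Of the 9 genes, 3 (LSS, MSMO1 and DHCR7) had an FPKM ratio of 1/1.5 or less, the fold criterion of the study turned downward. That compares with 17.3% of the 24454 genes above 0 in both libraries and with 6.77% of the 12638 genes at an FPKM of at least 1, a level that all 9 enzymes passed. MSMO1 at 0.603 was the gene just inside this threshold, and SQLE at 0.695 the gene just outside it. None of the 9 reached 1.5, which 14.7% of the larger and 3.87% of the smaller set did. With no replicates these shares describe the 2 libraries and do not set the enzymes apart from other genes. The libraries held 70184517 (DMSO) and 73062209 (FIN56) expected counts, so counting error was small. The interval of the count ratio lay below 1 for 7 of the 9 enzymes and included 1 for NSDHL and TM7SF2. Many genes pass so narrow a bound, and among the 12638 it lay below 1 for 35.9% and above 1 for 38.0%.

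**Figure D2:**
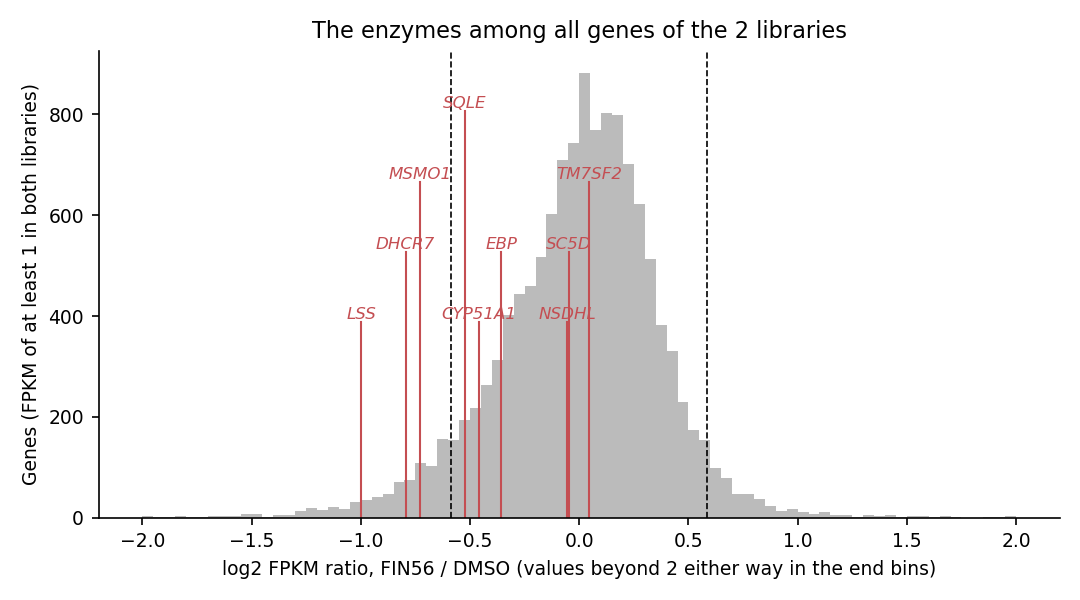
Histogram of the log2 FPKM ratio (FIN56 over DMSO) of the 12638 genes with 1 FPKM or more in each library, with the 9 enzymes as red lines of arbitrary height and the thresholds of 1.5 and 1/1.5 as dashed lines. LSS at -0.997, DHCR7 at -0.79 and MSMO1 at -0.73 lie beyond the lower threshold, while SC5D, NSDHL and TM7SF2 lie near the peak of the histogram.

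The 2 enzymes that commit squalene to sterols were both lower in the FIN56 library, and by different amounts. SQLE (ENSG00000104549), squalene epoxidase, is a flux-controlling enzyme of the pathway and spans bases 124998497 to 125022283 of chromosome 8 (GRCh38, plus strand). It had an FPKM of 65.9 with DMSO and 45.8 with FIN56, from 11220 and 8096 expected counts, the highest level of the 9 enzymes in both libraries. Its count ratio was 0.693, with an interval of 0.674 to 0.713. LSS (ENSG00000160285), lanosterol synthase, spans bases 46188141 to 46228824 of chromosome 21 (minus strand). The DMSO library gave it an FPKM of 14.6 and the FIN56 library 7.33, and its count ratio of 0.490 (0.463 to 0.518) was the lowest of the 9. Only 1.41% of the 12638 genes had an FPKM ratio as low as that of LSS, against 8.41% for SQLE. The intervals of these neighbouring steps did not overlap, and SQLE exceeded LSS in FPKM 4.50 times with DMSO and 6.25 times with FIN56.

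The first enzyme to act on lanosterol was lower with FIN56. For TM7SF2, a reductase of the next step, the count interval included 1, and for LBR, another, it lay below 1. CYP51A1 (ENSG00000001630), the cytochrome P450 that removes the C14 methyl group, spans bases 92084987 to 92134803 of chromosome 7 (minus strand). Its FPKM went from 13.5 with DMSO to 9.83 with FIN56, with a count ratio of 0.732 (0.691 to 0.775). Its expected counts, 2754.62 and 2097.90, are not whole, which means that some reads were divided with other genes. Pseudogenes of CYP51A1 are listed beside it, and the one with over 10 counts in both libraries together, CYP51A1P2, had 8.92 and 7.18. CYP51A1 also shares 25687 bases of its span with AKAP9 on the opposite strand, which had 2950 and 3183 counts, both whole. On the same strand, a protein-coding gene without a symbol shares 22645 bases and had 0 and 6.92 counts. The strand setting of the counting is not given in the sources used here.

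TM7SF2 (ENSG00000149809), a sterol reductase that removes the double bond left by CYP51A1, spans bases 65111845 to 65116384 of chromosome 11 (plus strand). It was the weakest of the 9 enzymes, with an FPKM of 5.63 with DMSO and 5.81 with FIN56 from 381 and 418 counts. Its count ratio of 1.05 had the widest interval, 0.915 to 1.21, so a difference in either direction was not detectable at this depth. Its annotated span shares 18 bases with VPS51 on the same strand, a gene with 8585.04 and 7642.51 counts. LBR, the lamin B receptor, carries out the same reduction and had FPKM values of 40.8 and 36.7, which is 7.24 and 6.32 times those of TM7SF2. The count ratio of LBR was 0.850 (0.824 to 0.877).

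The C4 methyl groups are removed by 3 enzymes that act in turn, and the first of them alone had a count interval below 1. MSMO1 (ENSG00000052802), the methylsterol oxidase that starts the step, spans bases 165327667 to 165343164 of chromosome 4 (plus strand). It had an FPKM of 55.7 with DMSO and 33.6 with FIN56, from 7765 and 4843 counts, and a count ratio of 0.599 (0.578 to 0.621). NSDHL (ENSG00000147383), the dehydrogenase that takes off the carboxyl group, spans bases 152830967 to 152869729 of chromosome X (plus strand). It had 19.2 and 18.5, from 2149 and 2174 counts, with a count ratio of 0.972 (0.915 to 1.03). HSD17B7, the reductase that closes the step, had FPKM values of 10.8 and 12.1 and a count ratio of 1.08 (1.00 to 1.17). ERG28, which tethers the enzymes of this step to one another, had 23.8 and 22.3 and a count ratio of 0.939 (0.897 to 0.983). MSMO1 thus stood 2.90 times above NSDHL in FPKM with DMSO and 1.82 times with FIN56.

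Of the last 3 enzymes, EBP and DHCR7 were lower with FIN56, and SC5D gave different answers by FPKM and by counts. EBP (ENSG00000147155), the isomerase that shifts the ring double bond, spans bases 48521799 to 48528716 of chromosome X (plus strand). It reached an FPKM of 40.3 with DMSO and 31.5 with FIN56, and its count ratio was 0.796 (0.754 to 0.842). Like those of CYP51A1 and LSS, the expected counts of EBP, 2820.41 and 2337.84, are not whole. A protein-coding gene without a symbol shares 6911 bases with EBP on the same strand and had 1.76 and 3.58 counts. SC5D (ENSG00000109929), the desaturase that makes 7-dehydrocholesterol, spans bases 121292681 to 121313410 of chromosome 11 (plus strand). Its FPKM was 19.5 and 18.8, a ratio of 0.967, while its counts of 3142 and 2894 gave a ratio of 0.885 with an interval of 0.841 to 0.931. DHCR7 (ENSG00000172893), which reduces 7-dehydrocholesterol to cholesterol, spans bases 71428193 to 71452868 of chromosome 11 (minus strand). It had 42.9 FPKM with DMSO and 24.7 with FIN56, from 6931 and 4048 counts, with a count ratio of 0.561 (0.540 to 0.583). Only 2.99% of the 12638 genes had an FPKM ratio as low. A long noncoding RNA on the opposite strand overlaps 3596 bases of DHCR7 and had 102 and 71 counts, few beside those of the enzyme. The enzyme that consumes 7-dehydrocholesterol exceeded the one that forms it 2.20 times in FPKM with DMSO and 1.31 times with FIN56. Sterol levels were not among the data, so these are ratios of transcripts and not of fluxes.

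**Figure D3:**
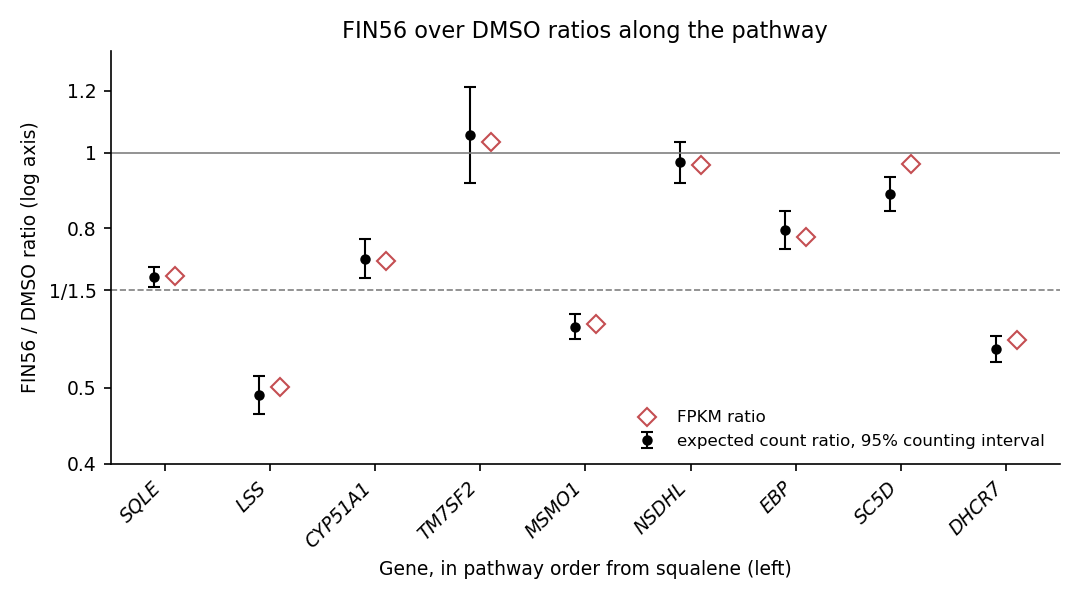
Ratio of FIN56 over DMSO on a log axis for each enzyme in pathway order, as the expected count ratio with its 95% counting interval (black) and as the FPKM ratio (red diamonds), with a solid line at 1 and a dashed line at 1/1.5. LSS, MSMO1 and DHCR7 lie below the dashed line by both measures, the intervals of TM7SF2 and NSDHL cross 1, and the 2 measures differ most for SC5D (0.885 and 0.967).

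The gap between the 2 measures of SC5D lies in the gene length used. Dividing counts by FPKM gives back the effective length that RSEM assigned, which depends on the mix of transcripts in each library. For SC5D it was 2298 bases with DMSO and 2104 bases with FIN56, a ratio of 0.915. The other 8 enzymes had ratios from 0.973 (DHCR7) to 1.02 (TM7SF2), and the median over the 12638 genes was 0.997, with 0.867 and 1.09 at the 5th and 95th percentiles. A change in the mix of SC5D transcripts and an error in their estimation cannot be told apart from gene totals.

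Levels of the 9 enzymes spanned 11.7 times in FPKM with DMSO and 7.88 times with FIN56. With DMSO the order was SQLE, MSMO1, DHCR7, EBP, SC5D, NSDHL, LSS, CYP51A1 and TM7SF2, and SC5D and NSDHL were the only neighbours whose intervals overlapped. With FIN56 the order differed in 2 places, as EBP passed DHCR7 and CYP51A1 passed LSS. There the intervals of MSMO1 and EBP overlapped, as did those of SC5D and NSDHL. In the order of count ratios, LSS stood apart from DHCR7, and MSMO1 from SQLE. All other neighbours in that order overlapped.

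Sequences before the starts of the genes are shown because transcription of this pathway is classically driven by SREBP2 together with NF-Y, whose CCAAT box often lies near a sterol regulatory element. RefSeq promoter windows (GRCh38.p14) were at hand for 8 of the 9 genes, 10 windows in all, since SC5D and DHCR7 each have 2. SQLE had none. A window ends at the RefSeq start, and each of the 8 genes has a window at the start of its canonical GENCODE transcript, while the gene spans above reach to the outermost transcript. The first window of DHCR7, whose RefSeq start is 4475 bases past the outer edge of its span, and that of CYP51A1, at 326 bases, therefore lie inside the spans. In the 250 bases before the RefSeq start, CCAAT was found on either strand in 8 of the 10 windows (7 genes), beside 32.0% of all 35116 windows. Its number was 5 in NSDHL, 4 in MSMO1, 3 in EBP, 2 in 1 window of DHCR7, 1 each in LSS, TM7SF2 and SC5D, and 0 in CYP51A1, with overlapping matches counted separately. The 2 windows of SC5D overlap and hold the same CCAAT. The letters TCACNCC, the core of many sterol regulatory elements, were found in MSMO1 (2 matches) and NSDHL (1 match), beside 13.1% of all windows. Its stricter form TCACCCC was in none of the 10 windows and in 4.80% of all. The E-box CACGTG was found in the overlapping windows of SC5D, beside 6.34% of all windows, and the GC box GGGCGG in 8 windows, beside 42.6%. The share of G and C letters ran from 55.6% to 76.8% in the 10 windows, beside a median of 58.0% for all windows.

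Of these windows, 4 are given here as their longest stretch outside all annotated exons of the gene, from 5′ to 3′ on the strand of the gene, with matches of TCACNCC and CCAAT on either strand in capitals. They are the 3 genes past the threshold and NSDHL, which acts just after MSMO1.
LSS, chr21:46228825-46229024, minus strand: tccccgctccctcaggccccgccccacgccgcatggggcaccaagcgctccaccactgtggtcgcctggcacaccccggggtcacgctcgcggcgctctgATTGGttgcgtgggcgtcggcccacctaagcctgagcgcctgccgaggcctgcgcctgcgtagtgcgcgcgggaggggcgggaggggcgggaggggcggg
MSMO1, chr4:165327419-165327666, plus strand: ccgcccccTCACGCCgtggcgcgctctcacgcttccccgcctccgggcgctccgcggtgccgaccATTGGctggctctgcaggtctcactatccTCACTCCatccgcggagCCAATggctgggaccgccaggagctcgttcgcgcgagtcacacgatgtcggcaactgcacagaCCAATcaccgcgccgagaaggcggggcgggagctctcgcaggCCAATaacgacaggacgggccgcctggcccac
DHCR7, chr11:71448436-71448643, minus strand: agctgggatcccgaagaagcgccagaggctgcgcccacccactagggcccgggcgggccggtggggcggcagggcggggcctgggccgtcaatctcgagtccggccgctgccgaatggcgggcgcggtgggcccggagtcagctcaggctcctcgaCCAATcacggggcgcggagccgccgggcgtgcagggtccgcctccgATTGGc
NSDHL, chrX:152830813-152830966, plus strand: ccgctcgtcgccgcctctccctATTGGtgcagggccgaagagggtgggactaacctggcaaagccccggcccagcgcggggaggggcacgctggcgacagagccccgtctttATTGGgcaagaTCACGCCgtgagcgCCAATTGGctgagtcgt

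MSMO1 and NSDHL were the richest of the 8 genes in these letters and had FPKM ratios of 0.603 and 0.963. Any link between the letters and the ratios was not tested. LSS, with the lowest ratio, held 1 CCAAT, written ATTGG on the printed strand, 150 bases before the start, and 6 GC boxes in the whole window, which are left in lower case. The CCAAT of NSDHL nearest to the start lies outside its printed stretch. A match is a run of letters and not evidence of binding, and elements outside these 250 bases were not searched.

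The genes before squalene were examined in the same way. Of 9 genes from ACAT2 to FDFT1, 8 had an FPKM ratio below 1, 4 of them (MVD at 0.574, IDI1 at 0.579, MVK at 0.585 and ACAT2 at 0.652) at 1/1.5 or less, and the median log2 ratio was -0.57. Among the 12638 genes, 46.1% lay below 1 and 6.77% at 1/1.5 or less, the latter against 17.3% of all genes above 0. The exception was PMVK, phosphomevalonate kinase, at 1.41. FDFT1, squalene synthase, which makes the substrate of SQLE and is bound by FIN56, had an FPKM of 87.9 with DMSO and 59.9 with FIN56. Its count ratio of 0.679 (0.659 to 0.700) overlapped in interval with the 0.693 of SQLE.

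Transcripts for the electron donors and partners of these enzymes stood mostly above the DMSO level by FPKM. Among 6 such donors and partners, 5 had an FPKM ratio above 1, as did 53.5% of the 12638 genes, and none passed 1.5 or 1/1.5, with a median log2 ratio of 0.17. POR, which passes electrons to CYP51A1 and SQLE, had an FPKM of 13.7 with DMSO and 13.8 with FIN56, with a count ratio of 1.01 (0.948 to 1.08). PGRMC1, a heme protein that binds CYP51A1, had the highest ratio of the list, 1.25, from 83.1 and 104 FPKM. CYB5A, CYB5B and CYB5R3, of the cytochrome b5 system that serves MSMO1 and SC5D, had 1.19, 1.10 and 1.16. Count intervals lay above 1 for PGRMC1 (1.22 to 1.28), CYB5A (1.04 to 1.27), CYB5B (1.04 to 1.09) and CYB5R3 (1.12 to 1.19). That of POR included 1, and that of ERG28 lay below 1.

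**Figure D4:**
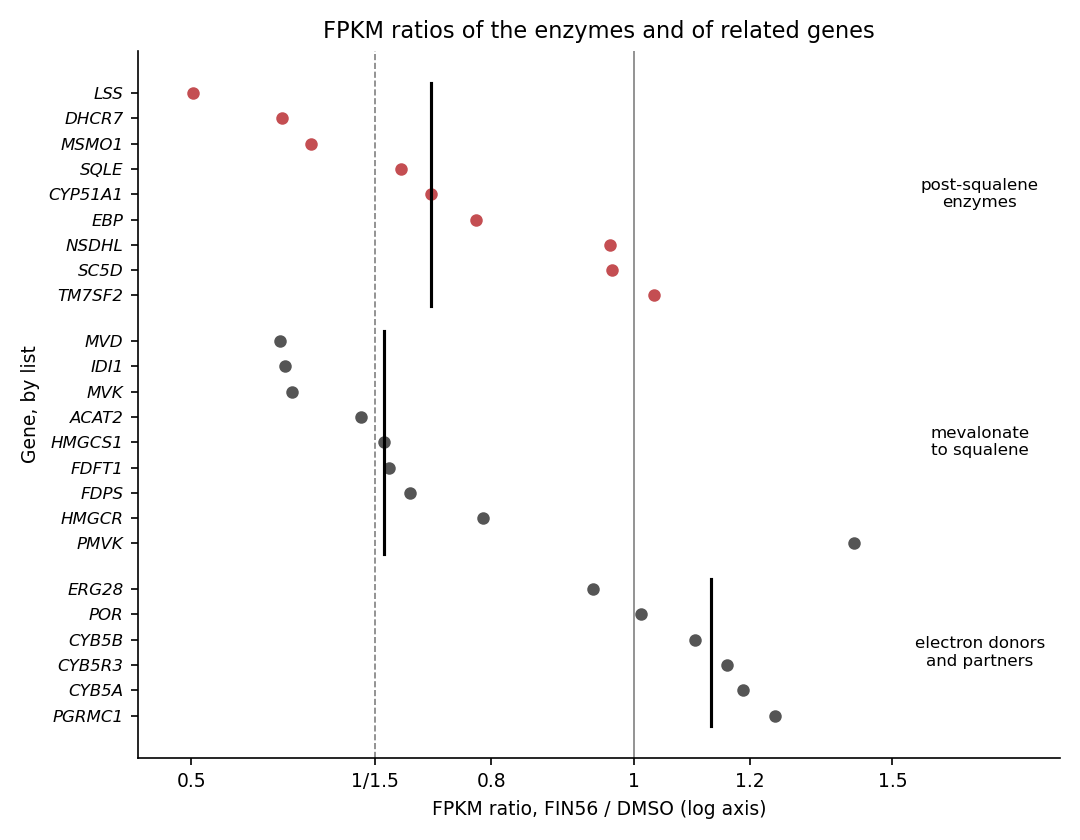
FPKM ratio of FIN56 over DMSO on a log axis for the 9 post-squalene enzymes (red) and for the genes before squalene and the electron donors and partners (grey), ordered by ratio within each list, with black bars at the list medians, a solid line at 1 and a dashed line at 1/1.5. Most genes of the first 2 lists lie left of 1, with PMVK at 1.41 as the exception farthest to the right, while 5 of 6 electron donors and partners lie right of it.

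The cells had the squamous markers of their origin. All 8 genes of the epithelial list were expressed, with summed FPKM values of 5544 and 5030, 4 ratios above 1 and 4 below, and a median log2 ratio of 0.054. They ran from 0.781 for SFN to 1.44 for EPCAM, with KRT5 at 2078 and 1647 and TP63 at 85.6 and 92.6. Among leukocyte genes, PTPRC and CD3E were listed at 0 in both libraries, while CD14 had 3.62 and 5.15 and CD68, a lysosomal protein also made outside macrophages, 57.3 and 24.6, and the summed FPKM of the list was 60.9 and 29.7. The 3 endothelial genes summed to 0.080 in both libraries, with PECAM1 at 0 FPKM in each. The 4 fibroblast genes summed to 4.60 and 2.50, most of it from COL1A1 at 4.25 and 2.19. DCN had 0.15 and 0.21, PDGFRB 0.20 and 0.10, and COL1A2 was at 0. The part of these differences in the values of the sterol enzymes was not tested.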

How the data were processed

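The data are 1 DMSO and 1 FIN56 library of HSC-3 cells. Per the labels, the authors aligned reads with STAR 2.6.1a to GRCh38 and ran RSEM 1.3.1. Deposited expected counts carry no normalization, and reads that fit several genes are divided between them. Deposited FPKM values are scaled by library and effective length, and deposited TPM values have the same total in each library. The log2 values deposited by the authors are rlog values made with DESeq2 1.26.0, which draws the libraries together.

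Ratios of FPKM were taken, and counted against 1.5 and 1/1.5. Expected counts were rounded and scaled by library totals, and the count ratio took its interval from an exact Clopper-Pearson interval for the share from FIN56. Intervals treat reads as independent, although the sources used here name no molecular identifiers. The count ratio and its interval were tested on simulated Poisson counts, which hold no variation between cultures. The enzymes and all gene lists were chosen with earlier results of these data known. All 9 enzymes were named, and other genes only from those lists, with a few exceptions. CYP51A1P2 was named as a pseudogene. AKAP9, VPS51, protein-coding genes without a symbol and a noncoding RNA were included for their overlap with an enzyme. Some genes of these lists are not reported here. Alternatives were TPM, rlog, edgeR 4.0.16 TMM, DESeq2 1.42.0 size factors, library totals, pseudocounts, filters and a threshold of 2. Positions came from GENCODE release 44 (GRCh38). Python 3.11.15, scipy 1.17.1 and R 4.3.3 were used.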

Additional observations from a re-analysis of the deposited data

How the results depend on the processing

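No paired analysis was possible because DMSO and FIN56 were sequenced once each, which also means that no replicate could be left out. With TPM, rlog values, TMM, median of ratios and library totals, no enzyme turned its direction, although NSDHL came as near to 0 as -0.0018 on the log2 scale (rlog values) and the count intervals of NSDHL and TM7SF2 included 1. Pseudocounts and filters cannot turn a direction. The median log2 ratio of the enzymes, -0.46, moved to -0.16 with rlog values, which shrink differences by construction. The count of 3 enzymes at 1/1.5 or less became 0 with rlog values. By FPKM it also became 0 at a threshold of 2, which LSS missed with an FPKM ratio of 0.501, while the count ratio of LSS was 0.490. SC5D moved from -0.049 by FPKM to between -0.14 (median of ratios) and -0.18 (TMM and library totals) by counts, which do not use the effective length. The share of all genes at 1/1.5 or less, and at 1.5 or more, was 17.3% and 14.7%. It was 0.0646% and 0.0283% with rlog values, 5.50% and 4.71% with a pseudocount of 0.1 FPKM, 1.3% and 0.785% with a pseudocount of 1 FPKM, 6.77% and 3.87% at 1 FPKM or more in each library, 11.1% and 7.62% at 10 expected counts in both, and 9.75% and 8.54% at a threshold of 2. Depth limits TM7SF2 most, with 381 and 418 counts.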

Other observations

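Genes around the pathway gave further values. EBPL and TMEM97, relatives of EBP, had FPKM ratios of 0.834 and 1.14, and neither passed 1.5 or 1/1.5. MARCHF6, the ubiquitin ligase that marks SQLE for degradation when cholesterol is plentiful, had an FPKM of 58.9 with DMSO and 64.2 with FIN56, a count ratio of 1.10 (1.07 to 1.12). FAXDC2, from the same hydroxylase family as MSMO1, had 143 counts in each library. SOAT1, which stores cholesterol as esters, had FPKM values of 19.9 and 19.9. SOAT2 and CH25H rested on 4 and 8 counts in both libraries together and CYP27A1 on 37, and the intervals of their count ratios included 1.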
